A study of Mus musculus with 6 samples.

Results

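Plasmacytoid dendritic cells (pDCs) were described here in the draining lymph nodes of immunized mice, as 66 single cells. A cell was taken as a pDC if it carried the hashtag of 1 mouse, had at least 500 unique molecular identifiers (UMIs, each standing for 1 captured RNA molecule) from genes with at most 10% of them mitochondrial, had no UMI of Cd79a (B cell receptor signalling chain) or of Cd3d, Cd3e and Cd3g (T cell receptor chains), and had at least 2 UMIs of Siglech. The 66 cells were 0.343% of the 19230 retained cells (95% exact binomial interval 0.266 to 0.436) and 5.47% of the 1206 retained cells without Cd79a and Cd3 (4.26 to 6.91). Both intervals pool the cells of 6 mice and cover counting error only. By mouse, the shares ran from 0.186 to 0.460% and from 2.26 to 8.28%, beyond these intervals. The remaining 1140 of these 1206 cells are called comparison cells below. Lymph node cells came from 3 wild-type mice (WT1 to WT3) and 3 Pik3cg knockout mice (KO1 to KO3), and all 6 animals had received 3 immunizations with NP-Ova in alum and were sampled on day 34. Pik3cg encodes the catalytic subunit of PI3K gamma, a lipid kinase of leukocytes. The labels give neither strain, age nor sex, nor where the gene was deleted or whether in all cells. Cells were negatively selected for B cells with added anti-IgD, and this enriched fraction made up 70% of the material and untouched cells 30%, so a share of cells is not that of the node. The mice were pooled after antibody hashtagging and run in 2 identical lanes, and n counts mice throughout.

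pDCs are bone-marrow-derived immune cells known for making large amounts of type I interferon when nucleic acids reach the endosomal receptors TLR7 and TLR9. The E protein Tcf4 sets their identity against that of conventional dendritic cells, in which the E protein inhibitor Id2 is active. Siglech is an inhibitory lectin-like receptor of mouse pDCs, Bst2 (tetherin, the PDCA-1 antigen) holds budding virions at the cell surface, and Ccr9 is a chemokine receptor for Ccl25. In lymph nodes they arrive from the blood.

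Because E proteins bind the E-box CANNTG, the upstream sequences of 4 genes that set these pDCs apart are shown first, as 250 bases before the RefSeq start in build GRCm38.p6, with the E-box CAGGTG (or CACCTG, its complement) in capitals. They were chosen as marker or leading genes of these cells that hold the motif. Sequences run 5′ to 3′ on the gene's own strand.
Siglech (chr7:55767934-55768183, forward strand): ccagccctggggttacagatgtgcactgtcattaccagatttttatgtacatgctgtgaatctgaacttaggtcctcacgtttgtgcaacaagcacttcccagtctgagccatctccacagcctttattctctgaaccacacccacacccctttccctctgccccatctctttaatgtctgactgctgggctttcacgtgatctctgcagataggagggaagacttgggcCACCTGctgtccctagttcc
Bst2 (chr8:71537473-71537722, reverse strand): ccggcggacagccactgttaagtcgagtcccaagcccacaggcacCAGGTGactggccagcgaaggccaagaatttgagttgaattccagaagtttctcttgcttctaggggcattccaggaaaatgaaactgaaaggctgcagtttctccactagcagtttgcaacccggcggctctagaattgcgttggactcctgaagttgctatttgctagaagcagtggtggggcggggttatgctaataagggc
Ccr9 (chr9:123766961-123767210, forward strand): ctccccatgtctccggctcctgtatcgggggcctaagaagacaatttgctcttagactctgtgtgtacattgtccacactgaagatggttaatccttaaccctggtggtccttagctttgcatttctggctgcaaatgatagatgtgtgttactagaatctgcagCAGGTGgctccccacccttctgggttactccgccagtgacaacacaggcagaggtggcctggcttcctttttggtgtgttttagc
Klk1 (chr7:44225110-44225359, forward strand): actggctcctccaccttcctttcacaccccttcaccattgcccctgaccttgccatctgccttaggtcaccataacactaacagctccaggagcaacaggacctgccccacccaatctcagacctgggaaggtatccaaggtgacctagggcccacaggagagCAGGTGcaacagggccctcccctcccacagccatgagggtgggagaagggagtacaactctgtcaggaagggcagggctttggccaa
Each of the 4 windows held 1 copy, whose first base lay 20, 205, 85 and 87 bases before the start of Siglech, Bst2, Ccr9 and Klk1. Of the 25 genes with the highest fold in pDCs, 19 had an entry in the sequence table, with 23 starts. CAGGTG, searched on both strands, was in the windows of 9 of 23 starts, from 8 genes (39.1%), against 17.2% of all 32851 starts. CAGCTG was in 2 (8.70%) against 13.0%. The interferon response pattern of GAAA, any 2 bases and GAAA was in 3 (Bst2, Cd300c and Grm8, 13.0%) against 2.98%, and the Ets and IRF pattern of GGAA, any 2 bases and GAAA, which can overlap the former, was in 1 (4.35%) against 2.30%. These matches are descriptions of letters in the windows, and binding was not measured.

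The number of pDCs was 6, 12 and 15 in WT1 to WT3 and 13, 15 and 5 in KO1 to KO3. Summed over a mouse's pDCs, there were 13020, 41424 and 60330 UMIs for WT1 to WT3, and 49051, 61013 and 22428 for KO1 to KO3, so values of WT1 and KO3 rest on the fewest molecules. A pDC had a median of 4001.5 UMIs and 1725.5 genes, against 1710 and 825.5 in a comparison cell. After each cell was thinned to 1000 UMIs, which left 59 pDCs and 893 comparison cells, the medians were 619 and 571 genes. The comparison cells were 118 with migratory dendritic markers (Fscn1, Ccl22), 31 with resident dendritic markers (Xcr1, Clec9a, Cd209a, Clec10a), 148 with natural killer (NK) cell markers, 11 with macrophage markers, 829 with none of these and 3 with several. An antigen receptor contig was present in 30.4% of the 829 cells with none, and in 1 of the 66 pDCs, a light chain (1.52%, 0.0384 to 8.16). No pDC was called a doublet by Scrublet, which marked 65 and 76 cells in the lanes. It also marked 0 of the 1140 comparison cells, 0 of 3693 T cells and 39 of 13628 B cells. Its 0 of 66, which allows up to 5.44%, therefore says little about doublets among pDCs. Of the retained cell barcodes, 134 occurred in both lanes, and no pDC had such a barcode.

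The label was checked against Bst2, Tcf4 and Ccr9, which the rule did not name. Bst2 had a UMI in 65 of the 66 cells, Tcf4 in 61 and Ccr9 in 50, and 47 cells held all 3, 16 held 2 and 3 held 1. Bst2 was at 3917, 3597 and 4509 UMIs per 1000000 UMIs (CPM) in the pDCs of WT1 to WT3 and at 4974, 4638 and 2898 CPM in those of KO1 to KO3, against 161 to 329 CPM in the comparison cells of the same mice. Tcf4 was at 1306, 2824 and 2039 CPM in WT and 1774, 2082 and 1650 CPM in KO pDCs, against 166 to 231 CPM. Ccr9 was at 614, 628 and 564 CPM in WT and 387, 475 and 268 CPM in KO pDCs, against 2.33 to 10.6 CPM. For each gene, the pDCs of every mouse lay above the comparison cells of every mouse. At 1000 UMIs per cell, Bst2 was found in 96.6% of pDCs and 12.1% of comparison cells, Tcf4 in 93.2% and 14.8%, and Ccr9 in 44.1% and 0.336%. Siglech itself, on which the rule rests, averaged 2257 CPM over all pDCs, 0.149 CPM in B cells and 0.1 CPM in T cells. Cells with at least 2 Siglech UMIs were left out of the B and T cell groups, so their low values follow partly from that choice.

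Per cell, a panel of 8 genes was counted: Bst2, Tcf4, Ccr9, Cox6a2, Ctsl, Runx2, Cd300c and Lair1. All 8 were held by 29 of the 66 cells, 7 by 19, and 6 or fewer by 18. Cox6a2, Ctsl, Cd300c and Lair1 are among the genes with the highest fold in these same cells, so the panel is no independent check. Of the comparison cells, 0 held all 8 and 3 held 7. At least 4 were held by 16 of 1131 comparison cells with 0 Siglech UMIs and by 4 of 9 with 1, so some comparison cells carried pDC markers. The 5 pDCs with fewer than 4 of the 8 genes had a median of 765 UMIs, and 4 of them had fewer than 1000. Low panel counts were not confined to shallow cells. A WT1 cell of 2465 UMIs held 3 of the 8, with 0 UMIs of Cox6a2, Ctsl and Ly6d. In KO3, which had 5 pDCs, a cell of 4834 UMIs held 5 and a cell of 5883 UMIs held 4, both with 0 UMIs of Cox6a2 and Ctsl. The cell of 4834 UMIs had 28 UMIs of Crip1, 7 of S100a4 and 5 of Ccr2. Both cells weigh on the KO3 values. Other mice had cells with few panel genes too. A KO2 cell of 4474 UMIs held 5, with 0 UMIs of Cox6a2, 1 of Ctsl and 13 of Crip1. A WT3 cell of 1826 UMIs held 5 and a WT2 cell of 1349 UMIs held 4, both with 0 UMIs of Cox6a2 and Ctsl. Just inside the threshold, the 8 cells with exactly 2 Siglech UMIs had a median of 844 UMIs and 4 panel genes, with Bst2 in 8, Tcf4 in 3, Ccr9 in 4 and Cox6a2 in 6. Just outside it, the 9 cells with 1 Siglech UMI had a median of 3841 UMIs and 3 panel genes, with Bst2 in 7, Tcf4 in 8, Ccr9 in 1 and Cox6a2 in 2. Of 73 retained cells with at least 2 Siglech UMIs, 5 were left out for a Cd3 UMI and 2 for a Cd79a UMI.

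**Figure D1:**
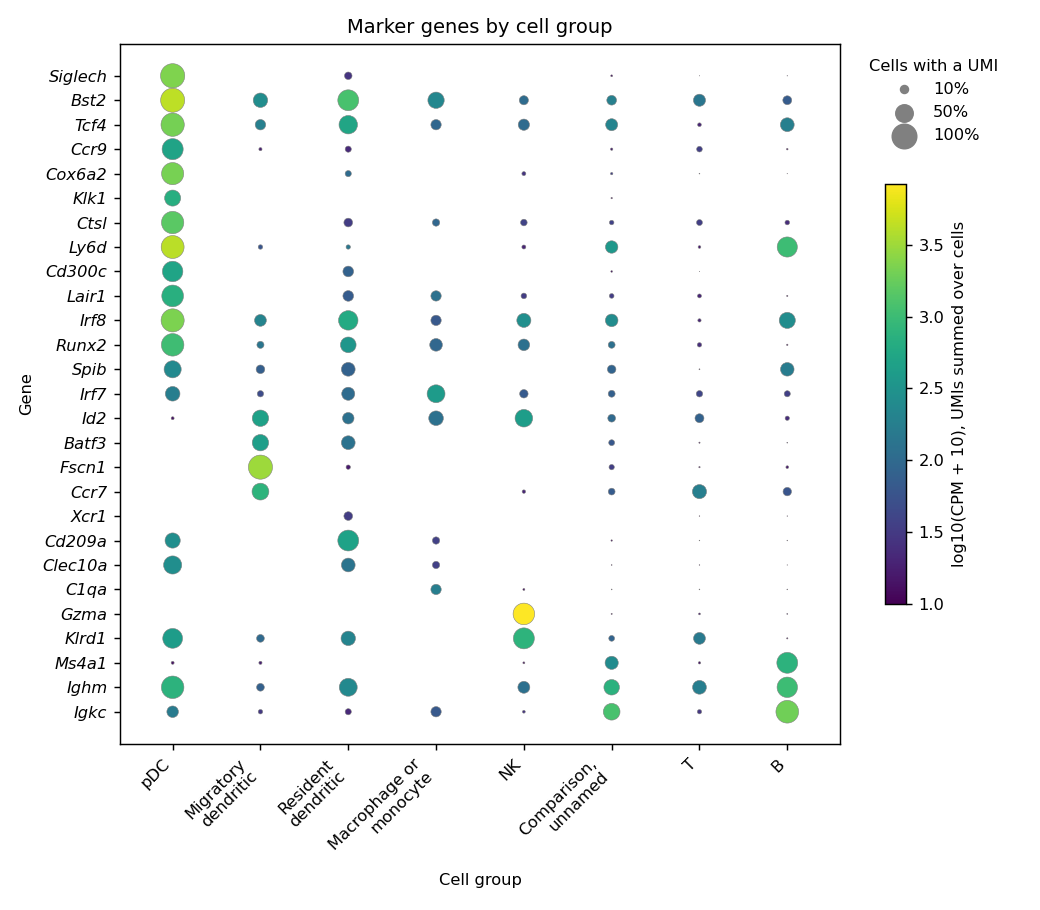
Marker genes (rows) in pDCs, the groups of comparison cells, T cells and B cells (columns). Point size is the percent of cells with a UMI and colour is log10(CPM + 10) of the UMIs summed over the cells. Siglech and Cox6a2 have large points in the pDC column and Klk1 a smaller one (43.9% of cells), and all 3 are nearly empty elsewhere. Every other group leaves out cells with at least 2 Siglech UMIs. Fscn1 and Gzma have no point in the pDC column.

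The rule chose the cells, so every gene of pDCs against comparison cells is given as a description with no test. A gene is called higher or lower here if the mean over the 6 mice of log2((CPM + 10)/(CPM + 10)) was at least 2 in size, the direction was the same in all 6, and at least 25% of the cells of the higher side had a UMI. Of 1869 genes with a UMI in at least 25% of either side, 113 were called higher in pDCs (6.05%) and 22 lower (1.18%), and the median log2 ratio of all 1869 was 0.09. The filter counts cells with a UMI, and pDCs were deeper (median 4001.5 against 1710 UMIs). Genes could pass it more easily from the pDC side, so the 2 counts are not on an equal footing. With cells thinned to 1000 UMIs, 63 of 517 genes were called higher and 18 lower, in 4 mice. The comparison cells are a mixture, so a ratio depends on which cells are in it. Against the migratory and resident dendritic cells only, 162 of 2026 genes tested were called higher (8.0%) and 127 lower (6.27%). Only 7 of the 22 genes called lower above were among those 127.

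Surface receptors were described first. Of 25 surface genes on the list for pDCs, 20 passed the filter on low values and 11 were called higher, with none lower, beside 6.05% of all genes tested called higher. Siglech, whose call the rule fixed in advance, is among the 11. Ly6d, a small glycolipid-anchored protein also used to mark lymphoid progenitors, was at 4166 CPM in pDCs and 247 CPM in comparison cells, and its log2 ratio was 3.94 ± 0.71 (SD over 6 mice). B cells also carried Ly6d, at 1009 CPM. The activating receptor Cd300c was at 501 CPM against 7.25 CPM (log2 ratio 4.82 ± 0.61) and the collagen-binding inhibitory receptor Lair1 at 683 CPM against 25 CPM (4.26 ± 0.96). Klra17, a Ly49-family receptor, was at 247 CPM against 3.22 CPM (4.11 ± 0.80).

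Ly6c2, the common monocyte and pDC antigen Ly6C, varied between mice. It was at 1229, 2583 and 3348 CPM in WT and 6116, 2770 and 2675 CPM in KO pDCs. KO1 was highest and WT1 lowest, and the genotypes overlapped. Lag3, an inhibitory receptor, was at 263 CPM in pDCs and 13.7 CPM in comparison cells, and Ptprs, an inhibitory receptor phosphatase, was at 299 CPM against 25 CPM. The CD4 and CD8 chains were also present: Cd4 had a UMI in 16 of 66 pDCs (76.8 CPM, against 5.64 CPM in comparison cells) and Cd8b1 in 22 (178 CPM, against 6.05 CPM), although no pDC had a Cd3 UMI by the rule. The chemokine receptors Cxcr3 and Ccr2 were sparse, with a UMI in 6 and 17 pDCs, and Ccr7, which guides dendritic cells into the node, was at 0 UMIs in all 66 (at most 12.1 CPM at 3 UMIs, at least 9.50-fold lower than in comparison cells).

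Among the list of other pDC-associated genes, 13 of 18 were called higher, with 16 tested, beside 6.05% of all genes tested. Cox6a2, a muscle-type subunit of cytochrome c oxidase, was at 2995, 2052 and 2221 CPM in WT and 2018, 2245 and 936 CPM in KO pDCs. In comparison cells it was at 5.98 to 96.9 CPM, and its log2 ratio was 6.09 ± 1.01, next after Siglech. Klk1, a secreted kallikrein protease, was at 1306, 821 and 149 CPM in WT and 1427, 541 and 178 CPM in KO pDCs, and at 0 to 5.31 CPM in comparison cells. Klk1 was uneven between mice and between cells: 29 of 66 pDCs had a UMI, and 1 cell of KO1 had 50 of the 167 UMIs. Without that cell KO1 was at 453 CPM of Klk1 in place of 1427 CPM. B cells, T cells, NK cells, macrophages and both other dendritic groups had 0 CPM of Klk1. Grm8, a metabotropic glutamate receptor, was at 453 CPM in pDCs and 2.82 CPM in comparison cells, with a UMI in 40 pDCs. Pltp, a phospholipid transfer protein, was at 510 CPM against 14.5 CPM, and Atp1b1, the beta chain of the sodium pump, at 801 CPM against 50.8 CPM.

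Dntt, the terminal transferase that adds bases to antigen receptor junctions in lymphoid precursors, had 29 UMIs in 19 of 66 pDCs. It was at 76.8, 145 and 66.3 CPM in WT and 61.2, 197 and 134 CPM in KO pDCs. None of the 1140 comparison cells had a UMI, which put pDCs at least 97.0-fold higher when 3 UMIs are allowed there. T cells had 4.21 CPM and B cells 0.0496 CPM. Rag1, its partner in early lymphoid cells, was at 0 UMIs in pDCs and in comparison cells. Cdh5, the VE-cadherin of endothelial junctions, had 27 UMIs in 19 pDCs and was at 109 CPM against 0.403 CPM, while the other 7 stromal and endothelial genes of the list held no higher call and 6 of them were at 0 UMIs in pDCs.

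**Figure D2:**
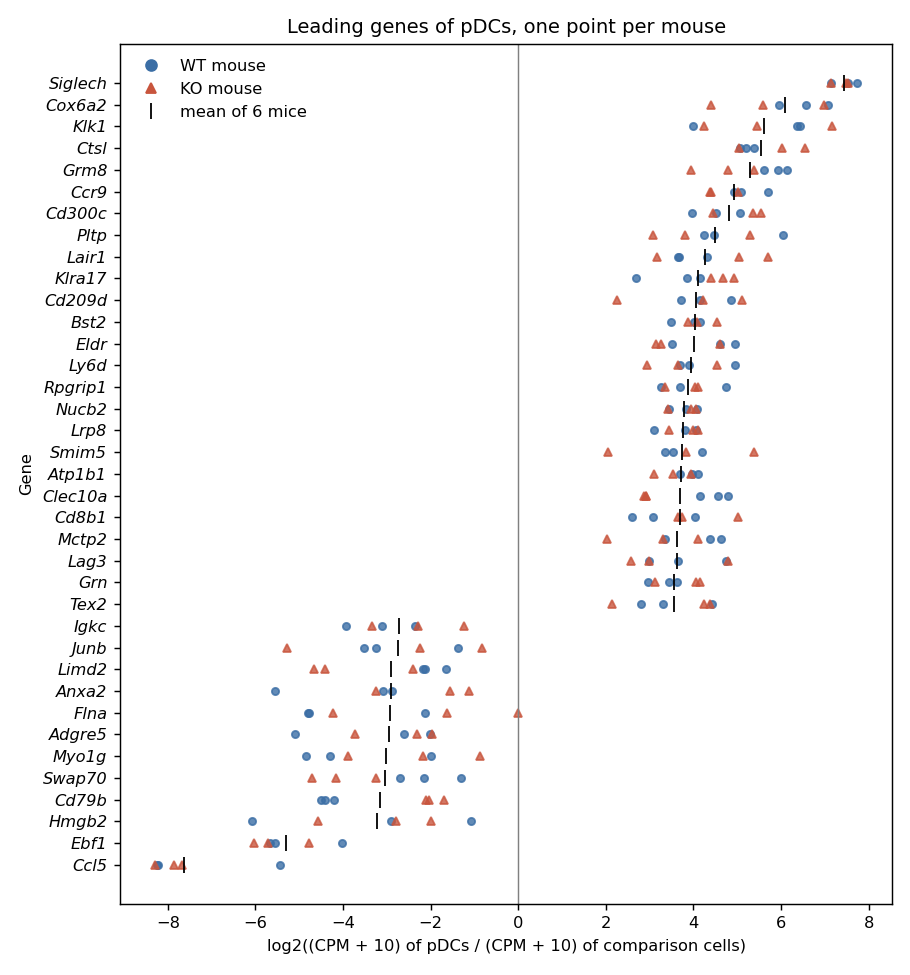
The 25 genes with the highest and the 12 with the lowest ratio in pDCs over comparison cells (rows), as log2((CPM + 10)/(CPM + 10)) per mouse, with circles for WT mice, triangles for KO mice and a bar at the mean of 6 mice. Siglech averages 7.43 and Ccl5 -7.62, and WT and KO mice intermingle in most rows.

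Among transcription factors, 3 of the 12 on the pDC list were called higher (10 tested, median log2 ratio of those tested 1.12), beside 6.05% of all genes tested. Besides Tcf4 these were Irf8, a factor required for dendritic cell development, and Runx2, which controls pDC exit from the marrow. Irf8 was at 1075, 1931 and 2536 CPM in WT and 2141, 2491 and 1873 CPM in KO pDCs, against 231 to 313 CPM in comparison cells. Runx2 was at 998, 1400 and 829 CPM in WT and 877, 1229 and 580 CPM in KO pDCs, against 74.4 to 180 CPM. Both were higher in pDCs than in migratory and resident dendritic cells together in all 6 mice, by log2 2.45 ± 0.56 and 2.19 ± 0.72. Spib, an Ets factor shared with B cells, was at 226 CPM against 61.3 CPM but was not higher in all mice, since KO3 had 44.6 CPM. Bcl11a (437 against 136 CPM) was higher in all 6 mice with a log2 ratio of 1.55 ± 0.60.

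Of 8 transcription factors of other dendritic cells none passed the filter on low values, and 2 were lower than in comparison cells in all 6 mice. Summed, the 8 were at 81.5 to 490 CPM in pDCs by mouse and at 435 to 828 CPM in comparison cells, so the ranges overlapped. Irf4 was at 44.5 CPM against 52.0 CPM and Klf4 at 56.6 CPM against 83.0 CPM, and neither was lower in every mouse. Id2 had 1 UMI in the 66 pDCs (4.04 CPM), against 463 CPM in migratory and 111 CPM in resident dendritic cells. Batf3, needed for cross-presenting dendritic cells, had 0 UMIs, against 414 and 117 CPM, and was at least 6.84-fold lower than in all comparison cells. Zbtb46 had 3 UMIs, 1 each in the WT1 cell of 2465 UMIs and the KO3 cells of 4834 and 5883 UMIs. All 3 were named above, with 3, 5 and 4 of the 8 panel genes and 0 UMIs of Cox6a2 and Ctsl. They had 4, 7 and 16 UMIs of S100a4 and 3, 7 and 8 of Tcf4. The name pDC is therefore least sure for these 3 cells, and their identity was not tested. Relb, abundant in migratory dendritic cells at 819 CPM, was at 40.4 CPM in pDCs.

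Of 27 nucleic acid sensing genes in the files, 9 were tested and 4 were called higher, beside 6.05% of all genes tested. Tlr7, the endosomal receptor for single-stranded RNA, was at 76.8, 193 and 116 CPM in WT and 224, 115 and 134 CPM in KO pDCs, and had a UMI in 28 of 66. Its level in comparison cells was 6.43 to 26.9 CPM, and at 1000 UMIs per cell it was found in 8.47% of pDCs and 1.68% of comparison cells. Tlr9, the receptor for CpG DNA, had only 8 UMIs in 7 pDCs and was higher than in comparison cells in 3 of 6 mice. Unc93b1, which carries both receptors to the endosome, was at 623 CPM against 170 CPM and was higher in all 6 mice, at a log2 ratio of 1.68 ± 0.82.

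The other 3 called genes of that list were lysosomal enzymes. Ctsl, a cathepsin that cleaves TLR ectodomains, was at 1690, 1762 and 1525 CPM in WT and 1488, 1442 and 847 CPM in KO pDCs, against 5.98 to 40.7 CPM in comparison cells. Ctsb was at 1314 CPM against 176 CPM, and the nuclease Pld4, which trims endosomal DNA and RNA, at 748 CPM against 87.9 CPM. Grn, a lysosomal protein that helps deliver CpG DNA to TLR9, was at 1246 CPM against 102 CPM. Tlr2, Tlr3, Tlr4 and the cytosolic DNA sensor Cgas had 0 UMIs in pDCs. In comparison cells these 4 genes were at 2.42 to 13.3 CPM, at or near the 12.1 CPM that 0 UMIs allow at this depth.

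None of 8 interferon genes had a UMI in pDCs. Ifna1, Ifna2, Ifna4, Ifna5, Ifna6, Ifnb1, Ifnl2 and Ifnl3 were also at 0 UMIs in comparison cells, and 0 UMIs in pDCs allow up to 12.1 CPM (3 UMIs over all pDCs). Of the 18 interferon and cytokine genes, 12 had 0 UMIs in pDCs. Tnf had 1 UMI, Il6 and Il12b had 0, and Il12a had 2. Ccl4, an inflammatory chemokine that pDCs can secrete, had 28 UMIs in 11 pDCs, at 20.4 to 229 CPM across mice. Ccl5 had the lowest ratio of the 22 genes called lower, with 1 UMI in pDCs against 9243 CPM in migratory dendritic cells and 10624 CPM in NK cells.

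Of 23 interferon-stimulated genes in the files, 6 were tested, 1 (Bst2) was called higher and none lower, beside 6.05% of all genes tested called higher. The median log2 ratio was 0.55 over the 6 tested and -0.96 over the 23. In all 6 mice 3 of the 23 lay above comparison cells and 6 below. Ifi27l2a was at 614, 2004 and 1409 CPM in WT and 2406, 901 and 1070 CPM in KO pDCs, against 537 to 1651 CPM in comparison cells, so the 2 ranges overlapped. Isg15 was at 0, 145 and 16.6 CPM in WT and 469, 16.4 and 0 CPM in KO pDCs. KO1 stood highest for Isg15, Ifi27l2a and Irf7 (306 CPM). Ifit1, Ifit3, Oas2, Oas3, Rsad2, Rtp4 and Ifi206 had 0 UMIs in pDCs, where Rtp4 and Ifi206 were at 43.1 and 56.0 CPM in comparison cells. Stat2 was the steadiest member, at 166 to 307 CPM in WT and 115 to 285 CPM in KO pDCs and a log2 ratio of 1.75 ± 0.21.

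Among 11 receptor and signalling genes of the interferon pathway, none met the rule for a call. Ifnar2, a chain of the type I interferon receptor, was at 441 CPM in pDCs against 97.1 CPM (log2 ratio 1.88 ± 0.52, higher in all 6 mice) and Ifnar1 at 125 CPM against 45.5 CPM. Ifngr1, a chain of the interferon gamma receptor, was on the other side at 32.4 CPM against 173 CPM, lower in all 6 mice. The inhibitor Socs1 had 0 UMIs in pDCs and was at least 2.82-fold lower than in comparison cells.

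Of 25 genes of the secretory pathway none reached the 4-fold rule. Of the 21 tested, 11 (52.4%) were above comparison cells in all 6 mice and none below, where 384 of all 1869 genes tested (20.6%) were above and 151 (8.08%) below. The median log2 ratio of the 21 was 1.03, against 0.09 for all genes tested. The translocon subunit Sec61b was at 1577 CPM against 752 CPM (log2 ratio 1.04 ± 0.28), and Sec61g at 1699 CPM against 793 CPM (1.05 ± 0.17). The secretory transcription factor Xbp1 was at 231 CPM against 65.7 CPM and was higher in 5 of 6 mice. Mzb1, an endoplasmic reticulum chaperone of plasma cells, was at 243 CPM in pDCs and in 29 of 66, whereas Jchain, secreted by plasma cells, had 0 UMIs.

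Antigen presentation genes were not called in either direction (11 of 18 tested, median log2 ratio 0.30). The class II gene H2-Ab1 was at 2381, 1328 and 713 CPM in WT and 1590, 1295 and 4057 CPM in KO pDCs, against 1343 to 1845 CPM in comparison cells, so pDCs lay on either side. KO3 rested on 1 cell, which held 65 UMIs of H2-Ab1, and KO3 was at 1571 CPM without it. The co-stimulatory genes Cd80, Cd86 and Cd40 had 0, 4 and 1 UMIs in the 66 pDCs, and Cd40 was at 348 CPM in migratory dendritic cells. The class II chaperone subunit H2-Ob had 3 UMIs, all in 1 cell of KO2.

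Markers of other cell types were mostly absent. The NK genes Gzma, Nkg7, Ncr1, Klrb1c, Klrk1, Prf1, Eomes and Tbx21 had 0 UMIs in pDCs, where Gzma was at least 108-fold and Nkg7 at least 39.7-fold lower than in comparison cells. Klrd1 (CD94), on the same NK list, was present in 44 of 66 pDCs at 290 to 464 CPM. The summed NK list was 314 to 464 CPM in pDCs by mouse. Of 14 macrophage and monocyte genes, C1qa, C1qb, C1qc, Adgre1, Ms4a7 and Fcgr1 had 0 UMIs and Lyz2 had 2, while the lysosomal protein Cd68 was called higher at 231 CPM against 38.3 CPM. The migratory genes Fscn1, Ccl22, Cacnb3, Apol7c and Socs2 had 0 UMIs, and Fscn1 was at least 26.7-fold lower than in comparison cells. All 10 granulocyte and mast cell genes and all 5 red cell and platelet genes had 0 UMIs. The 9 genes listed for transitional dendritic cells, among them Cd209a, Cx3cr1, Axl and Lyz2, summed to 347 to 936 CPM in pDCs by mouse, highest in KO3. Comparison cells were at 1494 to 3741 CPM of that list. Its members went in opposite directions, so the sums do not describe each gene. Cd209a, the only member tested, was called higher in pDCs (log2 ratio 2.23), with 65 UMIs there, while 3 members lay below comparison cells in every mouse. Lyz2, with 2 UMIs in pDCs, was at 1950 CPM in comparison cells with 0 Siglech UMIs.

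Some lectins shared with resident dendritic cells were present. Cd209a (DC-SIGN family) was at 263 CPM in pDCs, 480 CPM in resident dendritic cells and 0 CPM in migratory ones, and its mean log2 ratio against both dendritic groups was 0.05 ± 1.08. The resident group was chosen partly by Cd209a and Clec10a, so their levels there are not independent. Clec10a, a galactose-binding lectin, was at 259 CPM in pDCs and Cd209d at 400 CPM, and they had a UMI in 37 and 30 of the 66. Clec10a and Cd209a overlapped in part: 16 pDCs held both, 21 only Clec10a, 10 only Cd209a and 19 neither. Cst3, a protease inhibitor abundant in dendritic cells, was at 1990 CPM in pDCs against 11160 CPM in migratory and 9237 CPM in resident cells.

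Of 21 genes of the B lineage list 6 were tested, and 3 of them were called lower and none higher, beside 1.18% of all genes tested called lower. In all 6 mice 15 of the 21 lay below comparison cells and 1, Blnk, above, and the median log2 ratio was -1.18 over the genes tested and -2.81 over the list. The summed level was 1248 to 2098 CPM in pDCs by mouse. Bank1, Fcmr, Vpreb3 and Cr2 had 0 UMIs, and Ebf1 and Ms4a1 had 2 and 1. Cd79a was at 0 by the rule. Blnk, a signalling adaptor, was at 215 to 362 CPM in WT and 262 to 428 CPM in KO pDCs, against 119 CPM in comparison cells. Ighm, the constant region of the IgM heavy chain, was at 461, 724 and 729 CPM in WT and 775, 918 and 535 CPM in KO pDCs, with a UMI in 57 of 66. Igkc, the kappa light chain, was at 154, 48.3 and 49.7 CPM in WT and 102, 377 and 89.2 CPM in KO pDCs, with a UMI in 15 of 66. T cells, which make no immunoglobulin, had Ighm at 163 CPM in 32.5% of cells and Igkc at 19.7 CPM in 3.14%, at a median of 2535 UMIs per cell against 4001.5 in pDCs. The ratio of Ighm to Igkc UMIs was 5.03 in pDCs, 8.31 in T cells, 19.5 in resident dendritic cells and 0.519 in B cells. At 1000 UMIs per cell, Ighm was found in 52.5% of pDCs and 24.2% of comparison cells. No pDC had a heavy chain contig (0 of 66, which allows a share of up to 4.55%). The part of free RNA in the Ighm level was not tested.

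The genes called lower in pDCs differed with the comparison used. Ebf1 and Cd79b, B lineage genes, were at 8.09 and 40.4 CPM against 534 and 255 CPM. Against the dendritic cells alone their log2 ratios were -0.22 and -0.16, and that of Igkc was 2.35 instead of -2.71. Genes that were low against both comparisons included Swap70, an actin-binding signalling protein (20.2 against 208 CPM, log2 ratio -3.04 ± 1.26), Myo1g (28.3 against 182 CPM) and Anxa2 (44.5 against 338 CPM). Junb, an immediate-early AP-1 gene, was at 52.6 CPM against 379 CPM. It was the 1 called gene of 14 dissociation and stress genes (8 tested, median log2 ratio -0.76), while Jun was at 599 CPM against 412 CPM. The 11 cell cycle genes had no tested member, with 1 UMI each of Mki67 and Top2a in pDCs.

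Single pDCs differed in their antigen presentation genes. The 18 antigen presentation genes took from 0.148% to 6.14% of a pDC's UMIs, with a median of 1.93%. The cell at 6.14% came from KO3, had 5883 UMIs, no UMI of Cox6a2 or Ctsl, 47 UMIs of Cst3, 16 of S100a4 and 7 of Tmem176b, and held 53.7% of the list's UMIs in that mouse. Without it the list summed to 18797 CPM in KO3 in place of 29963. The cell next below, at 5.69%, had 545 UMIs and came from WT1. The 23 interferon-stimulated genes took from 0.0811% to 1.49% of a cell's UMIs, and KO1 had the highest median.

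**Figure D3:**
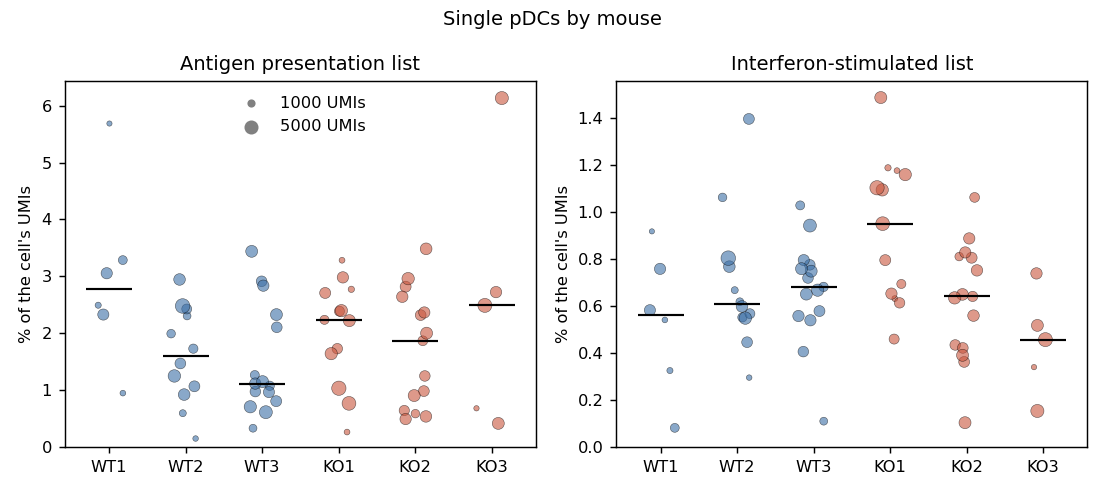
Percent of each pDC's UMIs that came from the antigen presentation list (left) and the interferon-stimulated list (right), by mouse, with point size for the cell's UMIs and bars at the medians. In KO3 1 cell stands at 6.14% in the left panel, and the KO1 median is the highest in the right panel.

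Genotype was not used by the rule, so KO and WT pDCs were tested, with the mouse as replicate. The share of pDCs among retained cells was 0.186, 0.401 and 0.418% in WT and 0.460, 0.370 and 0.197% in KO mice. The genotypes overlapped, at 0.335 ± 0.129% against 0.342 ± 0.134% (mean ± SD, n = 3 each, two-sided exact permutation p = 0.9). Among cells without Cd79a and Cd3 the share was 2.26, 6.06 and 7.14% in WT and 8.28, 7.28 and 2.94% in KO mice (5.16 ± 2.56% against 6.17 ± 2.84%, exact permutation p = 0.5). The 20 assignments of 6 mice allow no p below 0.1. Across 7 such measures the smallest Benjamini-Hochberg adjusted value was 0.7. Neither direction kept its sign in every run that left out 1 mouse: the first difference was -0.0675 points without WT1 and -0.0517 without KO1, and the second -0.434 and -0.0445.

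**Figure D4:**
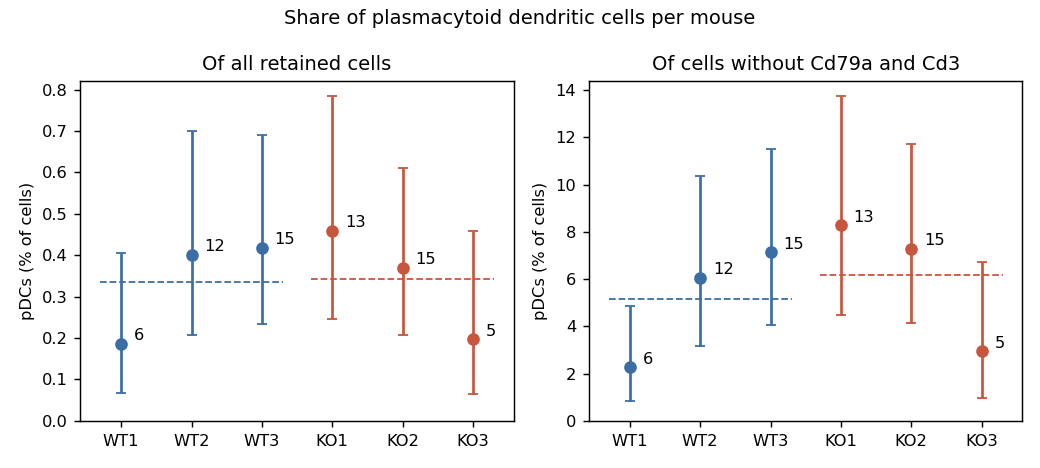
Share of pDCs per mouse among all retained cells (left) and among cells without Cd79a and Cd3 (right), with exact 95% binomial intervals that cover counting error only, the number of pDCs beside each point, and dashed lines at the genotype means. WT1 with 6 and KO3 with 5 pDCs are the lowest, and the genotypes overlap.

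Pik3cg itself had 7 UMIs in 7 of the 66 pDCs, so it says little about the labels here. It was at 76.8, 24.1 and 49.7 CPM in WT and 0, 16.4 and 44.6 CPM in KO pDCs (50.2 ± 26.3 against 20.3 ± 22.6 CPM, exact permutation p = 0.2), and the genotypes overlapped. Reads outside the deleted part would still count in a knockout. In comparison cells it was at 37.5 CPM. The gene lies on chromosome 12 at 32173473 to 32208659 (GRCm38, reverse strand). Of 17 PI3K pathway genes, 5 were tested and none was called in pDCs against comparison cells. The catalytic subunit Pik3cd was at 255 CPM and the adaptor Pik3ap1 at 287 CPM in pDCs, and the PI3K gamma adaptors Pik3r5 and Pik3r6 had 10 and 0 UMIs.

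Summed per mouse, the interferon-stimulated list was at 6496 ± 992 CPM in WT and 6675 ± 2630 CPM in KO pDCs (exact permutation p = 1.0), with KO1 highest at 9561 CPM. Bst2, a marker of pDCs as well as a list member, made up 4303 of the list's 6960 CPM over all pDCs, and in KO1 Bst2 was at 4974 and Ifi27l2a at 2406 CPM. Without Bst2 the list was at 2489 ± 1113 CPM in WT and 2504 ± 1805 CPM in KO pDCs. Its difference of 178 CPM turned to -382 CPM without WT1 and -1265 CPM without KO1. The nucleic acid sensing list was at 6916 ± 1069 against 6167 ± 827 CPM (exact permutation p = 0.4). The antigen presentation list was at 20522 ± 6742 against 22278 ± 6675 CPM (exact permutation p = 0.5), and its difference turned to -748 CPM without WT3 and -2087 CPM without KO3. Median UMIs per pDC were 1694, 3494 and 4150 in WT and 4025, 4228 and 4834 in KO mice (exact permutation p = 0.2).

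Over 661 genes, edgeR's quasi-likelihood test of summed counts called no gene between KO and WT pDCs at a Benjamini-Hochberg adjusted p of 0.05 (0.0%), and 29 had an unadjusted p under 0.05. DESeq2 also called 0, of 10468 genes, with 19 at an unadjusted p under 0.05. Of the 661, 344 were on the higher and 317 on the lower side in KO, and no fixed list held a called gene. The smallest p-values belonged to Malat1 and Hdac9. Malat1, a nuclear noncoding RNA, was at 13057, 8425 and 9912 CPM in WT and 7421, 5851 and 5573 CPM in KO pDCs, a log2 difference of -0.75 (SE 0.17, edgeR adjusted p = 0.164). The Malat1 difference was -0.42 with cells of at least 1000 UMIs and -0.44 in lane 1 alone. Both settings also left out WT1 and KO3, and in the 4 mice with at least 10 pDCs it was -0.49. Over 19 alternatives the adjusted p of Malat1 was 0.132 to 0.999 (edgeR and DESeq2). Hdac9, a class IIa histone deacetylase, was at 230, 579 and 398 CPM in WT and 81.5, 82.0 and 223 CPM in KO pDCs, a log2 difference of -2.04 (SE 0.45, edgeR adjusted p = 0.164), on 3 to 24 UMIs per mouse. In both genes the 3 KO mice lay below the 3 WT mice. These genes were picked for the smallest p, which favours such separation. Hdac9 passed the threshold at -2.52 (edgeR adjusted p = 0.0206) when only the 4 mice with at least 10 pDCs were used, which left out WT1 and KO3. Over the 17 alternatives that tested Hdac9 its difference was -2.52 to -1.70 and its adjusted p 0.0206 to 0.999 (edgeR and DESeq2), with -1.70 without WT2. Zdhhc14 and Txnip also lay lower in KO (log2 -1.36 and -1.52), and Uqcr10 and Ndufb1-ps, respiratory chain subunits, higher (1.2 and 0.83), with edgeR adjusted p of 0.880 to 0.887.

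**Figure D5:**
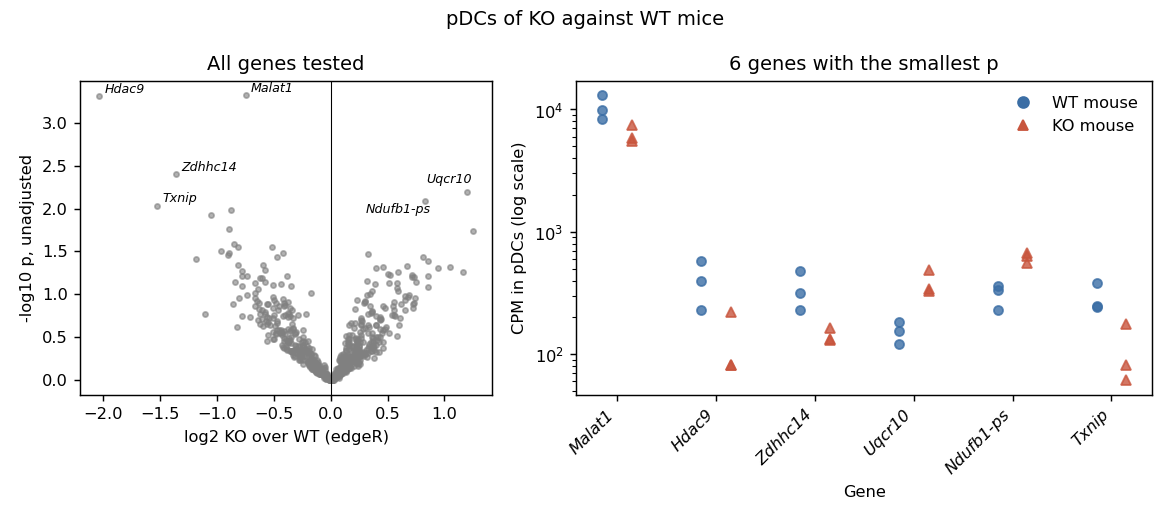
KO against WT pDCs. Left, log2 difference and -log10 unadjusted p of the 661 genes tested by edgeR; right, CPM per mouse on a log axis of the 6 genes with the smallest p. No gene passed an adjusted p of 0.05, and Malat1 and Hdac9 reached 0.164.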

How the data were processed

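Gene expression, antigen receptor and hashtag libraries of 2 lanes were analysed. The deposited matrices hold UMI counts per gene and cell barcode, and name Cell Ranger 7.0.1 as their software, per the file headers. The build was mm10, per the submitters' processing notes. Lanes were summed and cells assigned to mice by the deposited hashtag calls. Members, gene lists and tests were chosen with earlier results of these data known. Rows with the same symbol were summed (40 rows beyond the first). Counts were summed per mouse, and CPM is UMIs per 1000000 of all gene UMIs of those cells. Genes in the text follow a fixed rule: markers, the 25 highest and 12 lowest ratios, list members by role, and the 6 smallest p-values between genotypes. KO and WT pDCs were compared with edgeR 4.0.16 (TMM, filterByExpr, mice with at least 5 pDCs) and DESeq2 1.42.0, in R 4.3.3, and single values by two-sided exact permutation. Scrublet in scanpy 1.11.5 marked doublets. In simulated data of 661 genes, 94.2% of the 155 genes given a 4-fold change that passed the filter were recovered. Changed genes that the filter removed are not counted in that percentage. The spread between simulated mice was set by hand and not taken from these pDCs. The percentage therefore does not say how often a 4-fold change would be found here. Total UMIs of pDCs per mouse ran from 13020 to 61013, and intervals cover counting error only.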

Additional observations from a re-analysis of the deposited data

Results flagged for a closer look

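The pDC rule used barcodes with the hashtag of 1 mouse. Outside it, 18 of 3902 barcodes with several hashtags also had at least 2 Siglech UMIs, and they were 19.8% of the 91 barcodes with that many Siglech UMIs and any hashtag, against 16.8% of all barcodes with a hashtag. Of the 18, 10 had a Cd79a UMI, 5 had a Cd3 UMI and 5 had neither. None of 344 barcodes without a hashtag reached 2 Siglech UMIs. These barcodes belong to no mouse and entered no comparison.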

How the results depend on the processing

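No paired analysis was possible because the numbers in the labels name lanes, and each lane holds all 6 mice. The KO minus WT share of retained cells (0.00701 percentage points) changed sign in lane 1 alone (-0.0673), with Siglech at least 1 (-0.0431) or 3 UMIs (-0.00144), and in 2 alternatives chosen after seeing the data, members with at least 4 of 8 marker genes (-0.00891) and without the member with the most H2-Ab1 UMIs (-0.00607). It was 0.186 with cells with a receptor contig left out, where the share of cells without Cd79a and Cd3 differed by 1.94 points. Leaving out 1 mouse in turn gave -0.0675 to 0.0797 points for that share, -0.434 to 2.63 for the share of cells without Cd79a and Cd3 (all mice 1.01), -1265 to 1309 CPM for the interferon-stimulated list (178), -2087 to 5588 CPM for the antigen presentation list (1756), and 0 to 1 called genes between genotypes. Lane 1 alone gave -0.0457 points for the share of cells without Cd79a and Cd3, -315 CPM for the interferon-stimulated list and -3221 CPM for the antigen presentation list, and that last difference was -1966 CPM without the member with the most H2-Ab1 UMIs. The cause of these changes was not tested. Called genes numbered 113 higher and 22 lower. The higher count was 63 with cells thinned to 1000 UMIs, where 517 genes were tested in 4 mice (12.2% called, against 6.05%). It was 161 of 2170 with gene UMIs at least 1000 (7.42%, 4 mice) and 50 of 1869 with a pseudocount of 50 CPM (2.68%). Against dendritic cells only, 162 of 2026 were higher (8.0%) and 127 lower (6.27%). The lower count was 38 of 1856 in lane 2 alone (2.05%, 3 mice). With a pseudocount of 1 CPM it was 35 (1.87%) and with 50 CPM it was 8 (0.428%). The same direction in all mice is easier to meet with 3 or 4 mice than with 6. The log2 ratio of Pik3cg, -0.18, ran from -0.43 to 0.045 when 1 mouse was left out (0.045 without KO mouse 1) and was 0.26 against dendritic cells only, and that of Igkc, -2.71, was 2.35 against dendritic cells only. Between genotypes edgeR called 0 genes, but 1 without WT mouse 3 (AY036118, log2 -1.14, adjusted p = 0.0394) and 1 in mice with at least 10 pDCs (Hdac9). Of 741 alternative values for 39 named genes, 658 stayed within 1 SD, 80 moved further and 3 changed sign. Lane 2 alone could not be fitted for genotype, with too few mice of at least 5 pDCs.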
